A study of Homo sapiens with 12 samples.

Results

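The Numb-associated kinases (NAK family) AAK1, BMP2K, GAK and STK16 were followed in THP-1, a human monocytic leukaemia cell line. All probes that the platform annotation assigns to these 4 genes were taken, which gave 13 of 47323 probes. Of the 13, 5 passed the filter on dim signal, 1 each for AAK1, GAK and STK16 and 2 for BMP2K. The filter asks for a value above 7.25 on the log2 scale on at least 2 arrays, and after it 12306 genes were tested, each through its brightest passing probe. The members were chosen by measured values, namely those of p21 lines against the other lines and of KLF4 virus against empty virus. Values in those contrasts are therefore given as a description with no test of the members.

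The data are 12 bead arrays of total RNA, 1 for each of 6 CRISPR lines with each of 2 lentiviruses. Lines p21-2 and p21-3 carried a CRISPR construct against p21, the protein of the cyclin-dependent kinase inhibitor gene CDKN1A. The miR-150 lines 3 and 4 carried one against that microRNA, and lines NT-2 and NT-3 carried a non-targeting one. Each line was infected with the KLF4 virus and, separately, with an empty virus as control (ECV). KLF4 is a Krüppel-like zinc finger factor that binds DNA. Cells were harvested on day 5 of infection and day 17 of CRISPR selection. A group of target and virus thus holds 2 arrays, which limits the precision of every comparison. Nothing in the labels says whether a line is 1 clone or a pool, and the spread between the lines may in part be technical. Of 14 monocytic markers 13 had a probe and all 13 passed the filter, 12 of them above the background level on all 12 arrays. Markers of T and NK, B, erythroid and megakaryocytic, and epithelial and fibroblast cells had means of at most 7.38, that of NCAM1, the only one of them above the level on all 12 arrays. CDKN1A was at 11.08 to 11.37 in p21 lines and 11.66 to 12.48 in the other lines with KLF4. With ECV it was at 8.88 to 9.11 in p21 lines and 9.16 to 9.37 in the other lines. The probe used for KLF4 read 7.56 to 7.87 with KLF4 virus and 7.62 to 7.97 with ECV, so it does not check the virus labels.

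NAK kinases are serine/threonine kinases. AAK1, BMP2K and GAK act on the clathrin coats which carry receptors and other cargo into the cell and away from the trans-Golgi network. AAK1 (adaptor-associated kinase) phosphorylates the medium subunit of the AP-2 adaptor and the adaptor protein NUMB, which gave the family its name. BMP2K, also called BIKE, is the closest relative of AAK1 and was first described in mouse bone-forming cells as a gene induced by a bone morphogenetic protein. GAK (cyclin G-associated kinase) carries an auxilin-like J domain with which it helps HSPA8 strip clathrin from vesicles. STK16 is a lipid-anchored kinase of the Golgi.

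In RefSeq (GRCh38.p14) AAK1 lies on chromosome 2 from 69457997 to 69643739 and STK16 on chromosome 2 from 219245479 to 219250337. GAK lies on chromosome 4 from 849277 to 932316 and BMP2K on chromosome 4 from 78776350 to 78916365. AAK1, GAK and STK16 each have a neighbour that starts close by and is read the other way, so that a window from 250 bases before to 50 bases after the member's start holds both starts. The first base of ANXA4 lies 69 bases from that of AAK1, the first base of TMEM175 144 bases from that of GAK, and the first base of GLB1L 35 bases from that of STK16. The windows are shown because the pair of genes at each could be compared across the same arrays. They run 5′ to 3′ on the member's strand, and capitals mark the part that the neighbour transcribes. The AAK1 window is chr2:69643690-69643989 (minus strand), the GAK window chr4:932267-932566 (minus strand) and the STK16 window chr2:219245229-219245528 (plus strand). For AAK1 and STK16, which have 2 windows each in the table, the more upstream is shown. BMP2K is named only.
AAK1: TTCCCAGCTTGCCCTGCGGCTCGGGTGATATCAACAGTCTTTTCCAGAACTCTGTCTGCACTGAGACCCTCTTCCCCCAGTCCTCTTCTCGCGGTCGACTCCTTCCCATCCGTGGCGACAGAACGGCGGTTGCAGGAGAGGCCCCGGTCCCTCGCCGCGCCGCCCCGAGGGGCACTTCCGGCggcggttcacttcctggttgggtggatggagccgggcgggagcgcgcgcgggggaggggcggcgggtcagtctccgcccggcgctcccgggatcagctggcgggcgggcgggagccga
GAK: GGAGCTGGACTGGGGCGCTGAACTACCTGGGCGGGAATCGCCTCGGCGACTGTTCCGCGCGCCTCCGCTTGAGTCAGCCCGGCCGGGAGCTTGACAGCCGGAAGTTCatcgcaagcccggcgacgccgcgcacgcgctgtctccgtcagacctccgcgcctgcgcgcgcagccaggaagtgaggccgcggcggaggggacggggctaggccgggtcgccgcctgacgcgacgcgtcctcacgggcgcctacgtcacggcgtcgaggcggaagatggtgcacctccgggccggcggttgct
STK16: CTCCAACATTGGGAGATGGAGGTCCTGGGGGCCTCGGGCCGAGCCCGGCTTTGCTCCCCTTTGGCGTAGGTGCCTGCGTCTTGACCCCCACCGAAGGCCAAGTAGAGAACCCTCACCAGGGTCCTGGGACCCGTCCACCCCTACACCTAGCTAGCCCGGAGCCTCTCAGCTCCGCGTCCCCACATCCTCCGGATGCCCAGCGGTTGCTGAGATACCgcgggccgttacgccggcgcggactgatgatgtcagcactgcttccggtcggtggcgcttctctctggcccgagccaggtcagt

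The G and C content of these windows was 70.7% for AAK1, 73.3% for GAK and 66.3% for STK16. They were searched on both strands, overlaps allowed, for CACCC, a core that KLF proteins bind, for the GC box GGGCGG, and for TTTGAA, a cell cycle element (CHR) of promoters repressed downstream of p21. Of 27305 windows, the first listed for each gene, 58.9% held CACCC, 44.6% GGGCGG and 15.4% TTTGAA. The AAK1 window held CACCC at 2 places and GGGCGG at 6, the GAK window GGGCGG at 1 place and CACCC at 0, and the STK16 window CACCC at 1 place and GGGCGG at 0. TTTGAA was found at 0 places in all 3 windows. These matches describe the letters only.

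AAK1 was lower in both p21 lines than in every other line, with either virus. Its probe above background, ILMN_1688755, read 7.534 in p21-2 and 7.586 in p21-3 with KLF4 virus, against 8.202 and 8.137 in miR-150 lines 3 and 4 and 8.314 and 8.108 in NT-2 and NT-3. With ECV it read 7.466 in p21-2 and 7.453 in p21-3, against 7.989 and 8.014 in miR-150 lines 3 and 4 and 8.309 and 8.076 in NT-2 and NT-3. The groups did not overlap, and the highest p21 array lay 0.522 below the lowest other array with KLF4 and 0.523 below it with ECV. All 12 arrays lay above the background level. In bulk RNA, fewer cells that express a gene and less of its RNA per cell cannot be told apart.

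Against non-targeting lines the AAK1 difference was -0.65 (log2, SE 0.0979) with KLF4 and -0.73 (SE 0.0979) with ECV, or 0.637 and 0.602 of their level (n = 2 lines per group). Against miR-150 lines it was -0.61 with KLF4 and -0.54 with ECV (SE 0.0979 each). These comparisons share the p21 arrays. Line by line, all 8 differences between a p21 line and another line were negative with each virus, from -0.78 to -0.52 with KLF4 and from -0.86 to -0.52 with ECV. Averaged over both viruses, p21 lines were at 7.51 and the other 4 lines at 8.14, a difference of -0.63 (SE 0.0675). In this average AAK1 had the 2nd lowest difference of 12306 genes. These values chose AAK1, so its place in the order supports nothing further. With background subtracted on the linear scale and an offset of 50, the AAK1 differences against non-targeting lines were -1.03 with KLF4 and -1.19 with ECV.

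**Figure D1:**
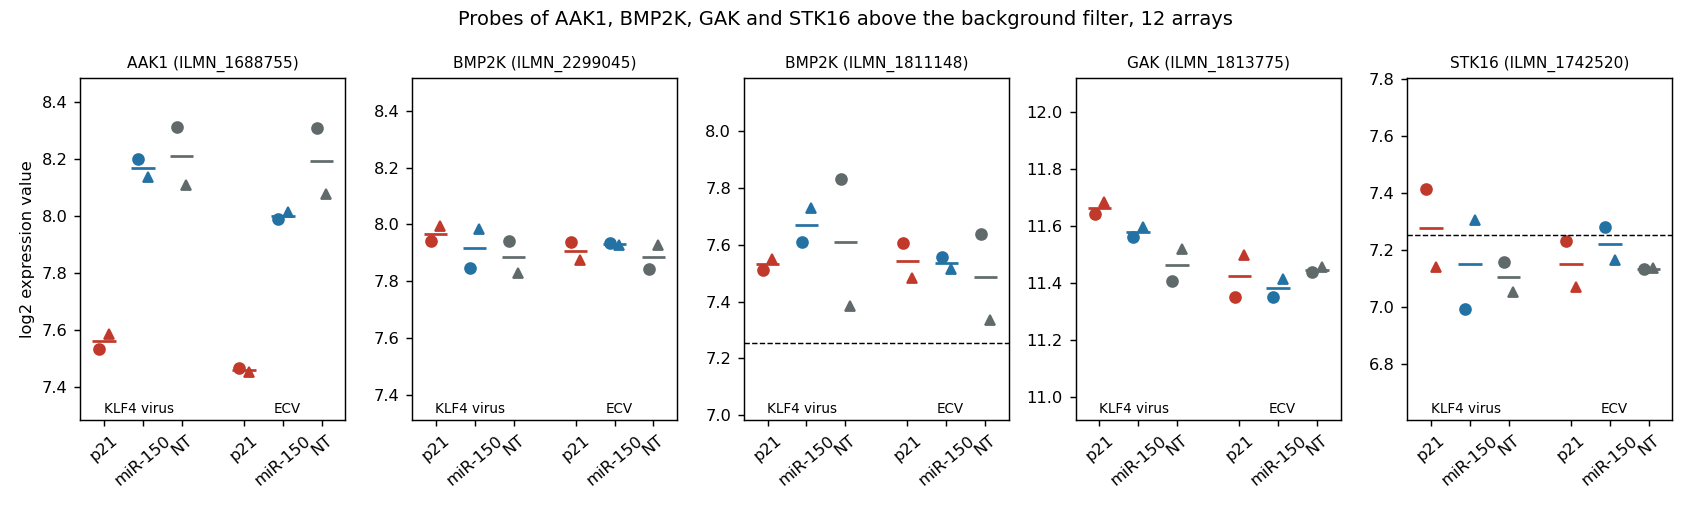
Log2 expression values (y) of the 5 passing probes in 12 arrays, by CRISPR target (x), KLF4 virus left and ECV right; circles are p21-2, miR-150 line 3 and NT-2, triangles p21-3, miR-150 line 4 and NT-3, bars are means of 2 arrays, and the dashed line is the background level of 7.25. The AAK1 probe lies between 7.453 and 7.586 in p21 lines and between 7.989 and 8.314 in the others, while the other kinases overlap or differ by less.

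The order of the AAK1 groups was the same for both viruses by target. The p21 lines averaged 7.56 ± 0.0366 with KLF4 and 7.459 ± 0.00971 with ECV (SD, n = 2 each). The miR-150 lines averaged 8.169 ± 0.0463 with KLF4 and 8.002 ± 0.0178 with ECV. Non-targeting lines averaged 8.211 ± 0.145 with KLF4 and 8.193 ± 0.164 with ECV. Both non-targeting groups and miR-150 with KLF4 overlapped. Below these came miR-150 with ECV, then p21 with KLF4, then p21 with ECV, each with both arrays below those of the group before it. Within a target, NT-2 stood above NT-3 with both viruses.

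The other 3 AAK1 probes lay at or below the background level on all 12 arrays, with values from 6.844 to 7.216. Their p21 differences from non-targeting lines ran from -0.02 to 0.15 with KLF4 and from -0.12 to 0.03 with ECV, and values at background have no order. The AAK1 difference thus rests on 1 probe. Whether the probe's transcript or the whole gene was lower was not tested.

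Over the 12306 genes, 1.15% had both p21 arrays below all 4 other arrays with both viruses and 1.35% had them above. AAK1 was 1 of the 142 below. Of these, 43 lie on chromosome 6 among 668 tested there, and 5 lie on chromosome 2 among 791. CDKN1A, the targeted gene, is on chromosome 6 as well. AAK1 was in the fit over all genes, but these contrasts chose it, so its row in them is no test of AAK1. Apart from AAK1, the limma test called 4 genes in p21 against non-targeting lines with KLF4, all lower, and 0 with ECV. The 4 are the chromosome 6 genes CCDC167, CMTR1, ZFAND3 and NFKBIE. At an unadjusted p under 0.05 there were 1358 genes with KLF4 and 667 with ECV. In the line averages the limma test called 9 genes other than AAK1, all lower, 8 of them on chromosome 6 and SAXO1 on chromosome 9. With the row of AAK1 counted in, the called shares are 0.0406% with KLF4, 0.00813% with ECV and 0.0813% in the line averages. That AAK1 is among the rows in these shares supports nothing further, because the same values chose it. Against miR-150 lines 0% were called with either virus (limma, 546 genes with KLF4 and 455 with ECV at an unadjusted p under 0.05). All these counts depend on single arrays. With 1 array left out they ran, AAK1 counted in, from 0 to 1436 with KLF4 (the most without NT-3 with KLF4) and from 0 to 28 with ECV (the most without NT-2 with KLF4) against non-targeting lines. Against miR-150 lines they ran from 0 to 11 with KLF4 and 0 to 23 with ECV, both highest without NT-2 with KLF4, and with 1 line left out the line averages gave 0 to 487, highest without NT-3.

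**Figure D2:**
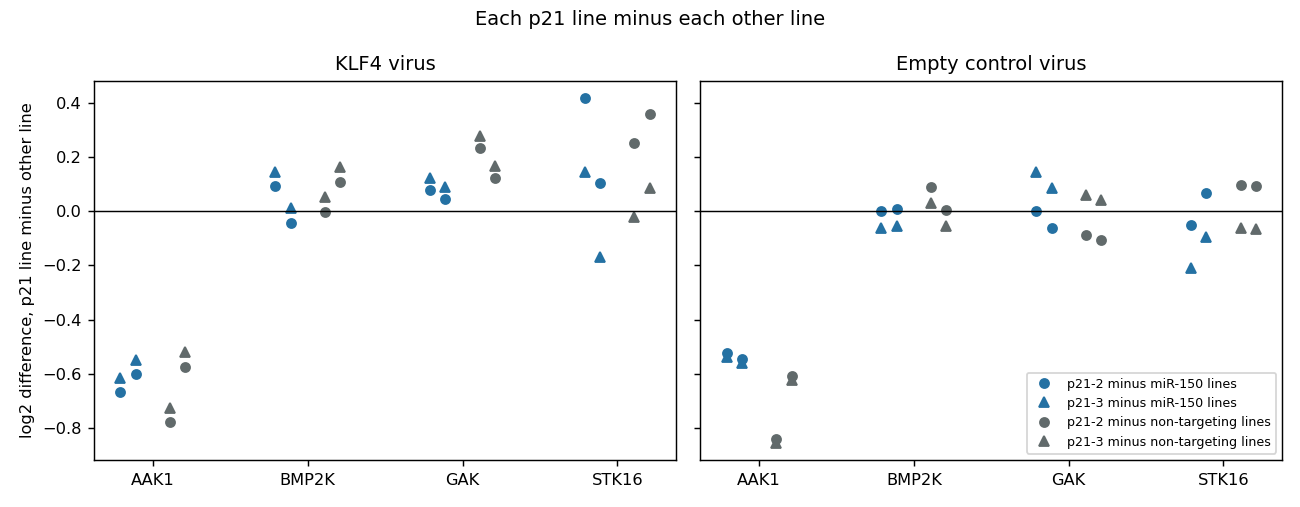
Log2 difference (y) of each p21 line minus each miR-150 or non-targeting line for the probe that stands for each kinase (x), with KLF4 virus left and ECV right; each point is 1 pair of arrays. Colours give the target of the second line and shapes the p21 line; all AAK1 points lie at or below -0.52, and the 8 GAK points with KLF4 lie between 0.045 and 0.279.

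The passing GAK probe, ILMN_1813775, read 11.351 to 11.686 and so lay far above the background level on all 12 arrays. With KLF4 virus it read 11.642 and 11.686 in p21-2 and p21-3, 11.562 and 11.597 in miR-150 lines 3 and 4, and 11.407 and 11.519 in NT-2 and NT-3. With ECV it read 11.351 and 11.498 in p21-2 and p21-3, 11.351 and 11.413 in miR-150 lines 3 and 4, and 11.437 and 11.455 in NT-2 and NT-3. With KLF4 the p21 arrays were thus highest and the non-targeting arrays lowest, with no overlap between targets, whereas with ECV the ranges overlapped. Of all genes tested, 2.16% had this order of targets with KLF4, and 8.65% had both p21 arrays above the other 4.

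The GAK difference of p21 from non-targeting lines was 0.20 (SE 0.0857) with KLF4 and -0.02 (SE 0.0857) with ECV. From miR-150 lines it was 0.09 with KLF4 and 0.04 with ECV. The other 4 GAK probes stayed at or below the background level on all 12 arrays.

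For BMP2K the p21 lines overlapped the other lines with both viruses. Its brighter probe ILMN_2299045 read 7.941 and 7.995 in p21 lines with KLF4, against 7.848 and 7.984 in miR-150 and 7.943 and 7.831 in non-targeting lines. With ECV it read 7.937 and 7.875 in p21 lines, against 7.936 and 7.929 in miR-150 and 7.845 and 7.929 in non-targeting lines. All 12 values fell between 7.831 and 7.995, and p21 minus non-targeting lines was 0.08 with KLF4 and 0.02 with ECV (SE 0.0864 each). The second passing probe, ILMN_1811148, separated the non-targeting lines instead, with 7.832 and 7.638 in NT-2 (KLF4, ECV) and 7.383 and 7.335 in NT-3. Its p21 values, 7.483 to 7.604, lay between those. The third probe, which the annotation assigns to another BMP2K transcript, passed the background level on 1 array, NT-2 with KLF4, at 7.452.

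STK16 was at the background level. Its only probe, ILMN_1742520, exceeded it on 3 of 12 arrays, p21-2 with KLF4 (7.413), miR-150 line 4 with KLF4 (7.306) and miR-150 line 3 with ECV (7.280), and passed the filter through these. The 3 arrays belong to 3 groups, and the other array of each group was below the level. The remaining STK16 values ran from 6.993 to 7.231, so the probe has a bound in most groups rather than a level. The p21 difference from non-targeting lines was 0.17 with KLF4 and 0.02 with ECV (SE 0.118 each). Levels of different probes are not comparable, so no order among the 4 kinases is given.

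The difference of miR-150 from non-targeting lines is made of p21 contrasts that the rule used, on the same arrays. It is therefore also a description with no test of the members. For AAK1 it was -0.04 with KLF4 and -0.19 with ECV (SE 0.0979 each). For GAK it was 0.12 with KLF4 and -0.06 with ECV (SE 0.0857 each). The BMP2K differences were 0.03 and 0.05 with KLF4 and ECV in turn (SE 0.0864 each). Those of STK16 were 0.04 and 0.09, from a probe at background that passed the filter partly through miR-150 arrays. Over all genes, 0% passed the limma test with either virus (656 genes with KLF4 and 418 with ECV at an unadjusted p under 0.05). With KLF4 the count over all genes was 0 to 1004 with 1 array left out, the most without NT-3 with KLF4. The intervals leave room for AAK1 differences of up to 0.40 below non-targeting lines.

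Between the viruses the 4 kinases differed by at most 0.15 on average. AAK1 was higher with KLF4 than with ECV in 6 of 6 lines, by 0.005 to 0.213, with means of 7.98 with KLF4 and 7.89 with ECV over the 3 targets (difference 0.10, SE 0.0565). GAK was higher in 5 of 6 lines, with differences from -0.030 in NT-2 to 0.291 in p21-2, and averaged 11.57 with KLF4 and 11.42 with ECV (difference 0.15, SE 0.0495). By target the GAK difference was 0.24 in p21, 0.20 in miR-150 and 0.02 in non-targeting lines (SE 0.0857 each). BMP2K averaged 7.924 with KLF4 and 7.908 with ECV, and STK16 7.177 and 7.169. These 4 differences are descriptions, beside 40.7% of all genes that passed the test for the mean KLF4 effect. By target that share was 18.4% in p21 lines, 16.1% in miR-150 lines and 26.4% in non-targeting lines.

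The difference of the KLF4 effect between miR-150 and non-targeting lines is made of contrasts that the rule used. It is therefore a description with no test of the members, and was 0.15 for AAK1 and 0.18 for GAK. For BMP2K it was -0.02 and for STK16 -0.04. No gene passed the limma test of this difference (0%, 510 genes at an unadjusted p under 0.05), nor the same test for p21 against non-targeting lines (0%, 715 genes). Without NT-3 with KLF4 the counts were 436 for miR-150 and 585 for p21. For p21 the described differences were 0.08 for AAK1, 0.06 for BMP2K, 0.22 for GAK and 0.15 for STK16.

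The 5 genes whose values followed AAK1 most closely over the 12 arrays were SLX4IP (Pearson r 0.974), a DNA repair factor partner on chromosome 20, the methylmalonyl-CoA mutase MMUT (0.963), the mRNA cap methyltransferase CMTR1 (0.943), the NF-kB inhibitor NFKBIE (0.940), and HPS5 (0.931), a subunit of a lysosome-related organelle complex on chromosome 11. MMUT, CMTR1 and NFKBIE lie on chromosome 6. MMUT read 10.535 and 10.453 in p21 lines and 10.860 to 10.987 in the others with KLF4, and 10.326 and 10.337 in p21 lines and 10.788 to 10.862 in the others with ECV. Their line-average differences of p21 from the other lines were -0.27 for SLX4IP, -0.47 for MMUT, -0.57 for CMTR1, -0.43 for NFKBIE and -0.36 for HPS5. The points share the same 12 arrays. All 5 genes were, like AAK1, below the other lines in both p21 lines. That difference chose AAK1, so the r values support nothing further. After each virus mean was taken off, which leaves the difference between targets in place, SLX4IP and MMUT ranked 1 and 2, with r of 0.974 and 0.968. HPS5 ranked 3, NFKBIE 4 and CMTR1 7. By Spearman correlation over the 12 arrays NFKBIE ranked 62.5 and the other 4 genes between 3.5 and 7.

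**Figure D3:**
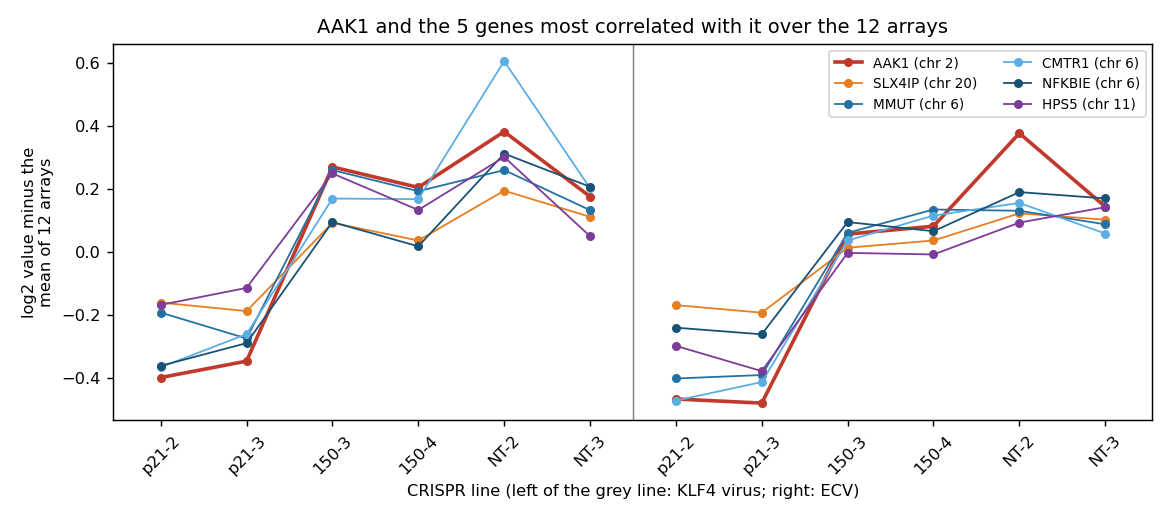
Log2 value minus the gene's mean over 12 arrays (y) for AAK1 and the 5 genes most correlated with it, by CRISPR line (x), KLF4 virus left and ECV right; lines only join the points of a gene. All 6 genes are lowest in p21-2 and p21-3 with both viruses.

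For the other members the closest genes were EXOC2 (r 0.899), SOCS4 (0.831) and IL2RA (0.809) for BMP2K. They were CCDC93 (0.917), RIPOR1 (0.912) and PPP1R7 (0.886) for GAK. After each virus mean was taken off, these 3 ranked 23, 39 and 119 among genes like GAK, and EXOC2, SOCS4 and IL2RA ranked 2, 15 and 19 among genes like BMP2K. None are given for STK16, whose values are at background. IL2RA averaged 7.13 to 7.23 by target, below the background level. Among AAK1, BMP2K and GAK themselves, r ran from -0.303 for AAK1 with BMP2K to 0.203 for BMP2K with GAK.

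The genes around AAK1 on chromosome 2 were compared in the same way. The 5 tested genes on each side were ARHGAP25, GKN1, ANTXR1, GFPT1 and NFU1, and ANXA4, GMCL1, SNRNP27, MXD1 and PCBP1. In the line averages their differences of p21 from the other lines ran from -0.11 to 0.12, with 3 lower and 7 higher and 0 past the limma test, against the AAK1 difference of -0.63. ANXA4, an annexin that binds membranes and whose start lies in the AAK1 window above, had the lowest of these at -0.11 (SE 0.0606, adjusted p = 0.723 by limma). It read 8.503 and 8.534 in p21 lines with KLF4, below the 8.781 and 8.700 of miR-150 lines and the 8.912 and 8.882 of non-targeting lines. Of all genes, 7.13% lay below the other 4 arrays in this way. With ECV it read 7.806 and 7.763 in p21 lines, within the 7.531 to 7.849 of the other lines. The difference from non-targeting lines was -0.38 with KLF4 (SE 0.104, adjusted p = 0.264 by limma) and 0.04 with ECV (adjusted p = 0.989), so neither passed. ANXA4 rose with KLF4 by 0.99 (SE 0.0601, adjusted p = 1.65e-08 by limma), where the AAK1 difference was 0.10. MXD1, a partner of MAX that represses MYC targets, rose by 2.06 and GFPT1, the first enzyme of hexosamine synthesis, by 0.79 (adjusted p = 1.98e-06 and 5.61e-08 by limma), and NFU1, an iron-sulfur cluster protein, fell by 0.34 (adjusted p = 0.00019). In all, 6 of the 10 AAK1 neighbours rose with KLF4 and 1 fell, beside 18.0% and 22.7% of all genes. Of the 10 neighbours each, 0 rose and 3 fell at BMP2K, 2 rose and 3 fell at GAK, and 2 rose and 1 fell at STK16.

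The same held at the other loci for p21 lines, with 0 of 10 neighbours past the limma test for each of BMP2K, GAK and STK16. Around GAK, differences ran from -0.13 to 0.11, and TMEM175, a lysosomal potassium channel whose start lies in the GAK window, was at 0.04 (SE 0.0603, adjusted p = 0.9). With KLF4 TMEM175 fell by 0.21 (SE 0.0555, adjusted p = 0.00784 by limma), where the GAK difference was 0.15. Around STK16, differences ran from -0.25 to 0.10. The lowest were GMPPA at -0.25 (SE 0.0816, adjusted p = 0.521 by limma) and DNAJB2 at -0.21 (SE 0.0537, adjusted p = 0.364). GLB1L, whose start lies in the STK16 window, read 7.042 to 7.291 and was thus near background, as STK16 was. Around BMP2K, whose annotated span overlaps that of PAQR3, ANTXR2 and PRDM8 were higher in both p21 lines than in all others with both viruses. Their differences were 0.24 (SE 0.064, adjusted p = 0.398 by limma) and 0.26 (SE 0.0775, adjusted p = 0.453), and neither passed. Of all genes, 1.35% lay above in this way.

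**Figure D4:**
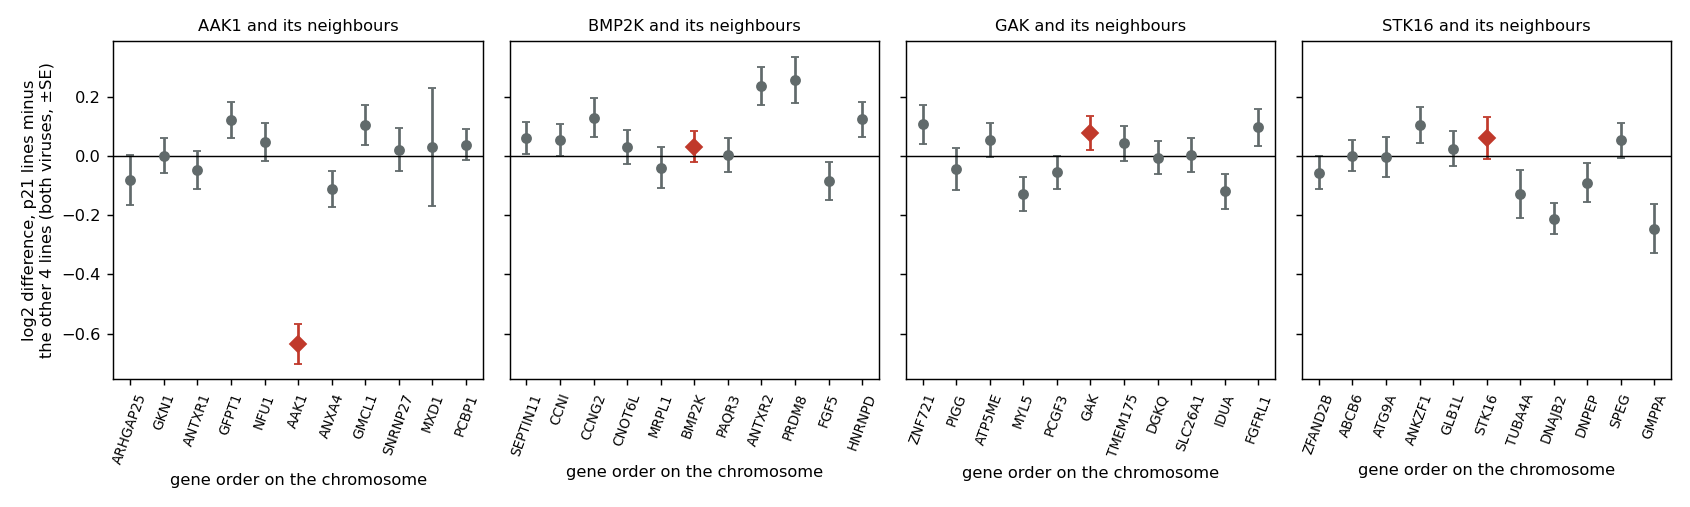
Log2 difference of p21 lines minus the other 4 lines, averaged over both viruses (y, ±SE), for each kinase (red diamond) and the 5 tested genes on each side in chromosome order (x). AAK1 lies at -0.63 and its 10 neighbours between -0.11 and 0.12.

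Genes that work with these kinases were read from 7 lists, 118 tested genes of 167 listed. In the comparisons of p21 lines with non-targeting, miR-150 or all other lines 0 of the 118 passed the limma test. At an unadjusted p under 0.05 there were 18 with KLF4 and 2 with ECV against non-targeting lines, 6 and 3 against miR-150 lines, and 8 in the line averages. These are 15.3%, 1.69%, 5.08%, 2.54% and 6.78% of the 118, beside 11%, 5.42%, 4.44%, 3.70% and 7.36% of all genes tested. The same was true of miR-150 against non-targeting lines, with 3 genes with KLF4 and 4 with ECV at an unadjusted p under 0.05, 2.54% and 3.39% beside 5.33% and 3.40% of all genes. With KLF4 virus, averaged over targets, 34 of the 118 rose and 19 fell, 44.9% against 40.7% of all genes tested. Rises made up 28.8% of the 118 and 18.0% of all genes, and falls 16.1% of the 118 and 22.7% of all genes.

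Among AP-2, clathrin and coat adaptor genes, on which AAK1 acts, 6 of 23 rose with KLF4 and 4 fell, 43.5% beside 40.7% of all genes. The median difference was 0.11 against -0.01 over all genes. NUMB, the substrate that names the family, rose by 0.51 (SE 0.0672, adjusted p = 3.1e-05 by limma), averaging 10.39 ± 0.116 with KLF4 and 9.88 ± 0.139 with ECV (SD, n = 6 lines each). The AP-2 binding proteins NECAP1 and NECAP2 rose by 0.34 and 0.37, each in 6 of 6 lines. ARRB1, an arrestin that brings receptors to clathrin, fell by 0.44 (SE 0.0549, adjusted p = 1.7e-05). With cyclic loess the count of rises was 10 in place of 6.

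Of 18 tested genes of membrane scission and uncoating, the step that GAK serves, 3 rose and 2 fell (median -0.002). That is 27.8% of the list, beside 40.7% of all genes. SH3GLB1, an endophilin, rose by 0.63 and the lipid phosphatase SYNJ1, which takes part in uncoating, by 0.58 (adjusted p = 6.7e-07 and 3e-05 by limma). BIN1 and DNM3 fell by 0.17 in 6 of 6 lines and by 0.15 in 5 of 6. With the CRISPR line as a block 1 gene fell in place of 2. Among AP-1 and GGA coats of the trans-Golgi network 6 of 19 rose and 2 fell (42.1% together, median 0.06). AP1S2, a small subunit of AP-1, rose by 0.98 (SE 0.0697, adjusted p = 8.1e-08 by limma), averaging 12.51 ± 0.156 with KLF4 and 11.53 ± 0.0479 with ECV (SD, n = 6 lines each). AFTPH, a clathrin accessory protein, rose by 0.40 and the mannose 6-phosphate receptor IGF2R by 0.30, while the sorting receptor SORL1 fell by 0.93.

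Of 11 receptors taken up through clathrin, 2 rose and 4 fell (54.5% together, median -0.03). Among the falls, KIT lay near background, at means of 7.07 with KLF4 and 7.25 with ECV, and passed the filter through ECV arrays only. The lipoprotein receptor family members VLDLR and LRP10 rose by 0.46 and 0.44. The chemokine receptor CXCR4 fell by 0.81 (its other passing probes gave -0.40 to 0) and the Wnt co-receptor LRP5 by 0.47. In the Notch pathway, in which NUMB is an inhibitor, 6 of 18 rose and 4 fell (55.6% together, median 0.02). NOTCH1 itself rose by 0.60, its sheddase ADAM10 by 0.53 and the gamma-secretase subunit NCSTN by 0.46, while the ligand DLL3 fell by 0.54.

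The BMP and SMAD pathway was read because BMP2K is a BMP-induced gene in mouse cells. Of its 16 tested genes 7 rose and 3 fell (62.5% together, median 0.08). The inhibitors of differentiation ID1 and ID2 rose by 0.91 and 0.80 and the inhibitory SMAD7 by 0.61, while SMAD6 fell by 0.42. The second passing probe of ID1 gave 0.05. Of 13 genes of the COPII coat, which BMP2K has been linked to in human cells, 4 rose and 0 fell (median 0.09). They were 30.8% of the list, beside 40.7% of all genes, and were led by SEC23B at 0.53. SEC24A, SAR1B and TFG rose by 0.21, 0.17 and 0.15, and the other passing TFG probes gave -0.09 to 0.08.

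**Figure D5:**
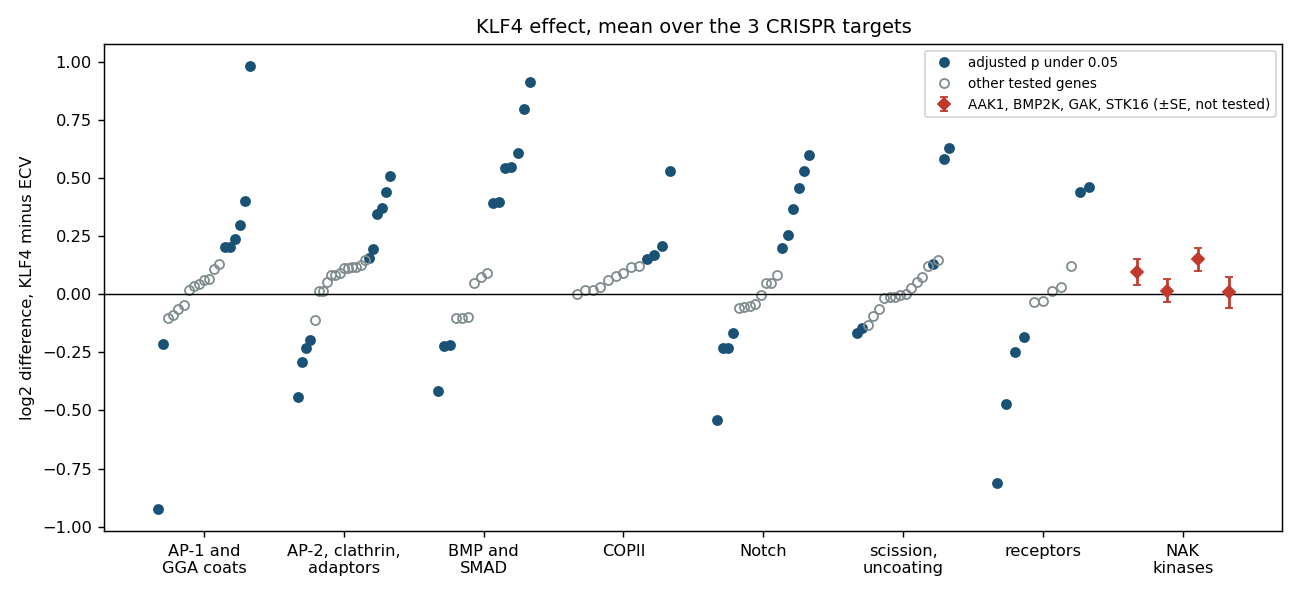
Log2 difference of KLF4 minus ECV, averaged over the 3 CRISPR targets (y), for every tested gene of 7 lists and for the 4 kinases (x). Filled points passed the limma test, and the kinases, as diamonds with SE, are a description with no test. The kinases lie between 0.01 and 0.15, inside a spread from -0.93 to 0.98.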

How the data were processed

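Biotin-labelled cRNA from total RNA of the THP-1 lines was read on Illumina bead arrays, per the labels' protocols. The series matrix holds 1 column of log2 expression values per array, deposited by the authors, from 6.69 to 14.8 with array medians of 7.17. Their normalisation is not given in the sources that were used, and 24 columns of another table that could not be tied to samples were not used. Array number limits the precision.

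The members and all gene lists were chosen with earlier results of these data known. Probes were named from the platform annotation (30113 with 1 symbol, 8 with several, 17202 unlisted). The background level was the 95th percentile of values below the mode (7.085) mirrored around it, and a probe had to exceed it on 2 arrays. Each gene was read through its brightest passing probe. limma 3.58.1 in R 4.3.3 fitted 1 mean per group over 12 arrays (6 residual degrees of freedom), with Benjamini-Hochberg adjustment over 12306 genes and a threshold of 0.05. Line averages were fitted over 6 lines. The code was tested on simulated data.

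Genes named were all member probes, the 4 called genes with the smallest p per list and comparison, the genes most correlated with a member (5 for AAK1, 3 each for BMP2K and GAK, none for STK16 because its values were at background), 5 neighbours on each side, and CDKN1A and KLF4. The called genes of the p21 comparisons were chosen for naming after seeing their values.

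Titles give each CRISPR line once per virus, so lines pair across viruses. Deviations from group means correlated at 0.0667 in p21, -0.0499 in miR-150 and 0.0947 in non-targeting lines. Alternatives were cyclic loess, 2 other filters, the mean of probes or all passing probes, a trended robust prior, array weights, the line as a block, background subtraction with an offset of 50, other probes, and leaving out each array. Leaving out NT-2 with KLF4 in all comparisons, and a size threshold of 0.5, were chosen after seeing the data. Promoter windows are from RefSeq (GRCh38.p14), and the table of windows used held 3 of the 4 members.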

Additional observations from a re-analysis of the deposited data

How the results depend on the processing

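With 2 arrays per group, counts of called genes depended on single arrays and settings, and the cause was not tested. The spread within groups was uneven. Its root mean square SD over genes was 0.191 in non-targeting lines with KLF4 and 0.0901 to 0.111 in the other groups. The fit shares 1 estimate of the spread over all groups, so each array enters every comparison. Genes called in p21 against non-targeting lines with KLF4 numbered 0 with cyclic loess or array weights, 1 without the filter or with the mean of probes, and 9 over all passing probes. With ECV they numbered 2 without the filter and 14 with array weights. Against miR-150 lines they numbered 2 with the trended robust prior and 3 with array weights (KLF4), and 13 with array weights (ECV). In the line averages they numbered 19 without the filter, 5 with the mean of probes, 18 with the trended robust prior, 29 with array weights and 35 over all passing probes. Over all passing probes the mean KLF4 effect had 7585 calls, beside 5010 of the 12306 genes, and each difference of the KLF4 effect between targets had 1. Counts over all passing probes or without the filter come from more tests than the 12306 genes. They therefore do not compare as shares.

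Leaving out 1 array gave 0 to 1436 calls with KLF4 in p21 against non-targeting lines (most without NT-3 with KLF4) and 0 to 28 with ECV, 0 to 11 and 0 to 23 against miR-150 lines, and 0 to 487 in the line averages. It gave 0 to 1004 for miR-150 against non-targeting lines with KLF4, and 0 to 585 and 0 to 436 for the difference of the KLF4 effect in p21 and in miR-150 lines. KLF4 calls ran from 4422 to 5673 for the mean, 1091 to 3134 in p21, 917 to 2937 in miR-150 and 2024 to 4217 in non-targeting lines.

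With 1 array left out, the AAK1 difference of p21 from non-targeting lines ran from -0.754 to -0.548 (KLF4) and from -0.849 to -0.617 (ECV). Against miR-150 lines it ran from -0.642 to -0.577 (KLF4) and from -0.555 to -0.53 (ECV). In the line averages, with 1 line left out, it ran from -0.689 to -0.579. The p21 arrays did not overlap the others, so no omission could change its sign. These values chose AAK1, so the ranges support nothing further. With background subtracted the AAK1 difference was -1.031, -1.194, -0.974, -0.918 and -1.029 in that order. The 3 AAK1 probes at background (ILMN_1674273, ILMN_1880387 and ILMN_1689211) gave 0.095, 0.154 and -0.023, then -0.116, -0.032 and 0.034, then 0.097, 0.155 and 0.051, then -0.189, -0.019 and 0.031, and -0.028, 0.064 and 0.023 in the same order of comparisons. GAK probes at background turned the sign to -0.044 and -0.135 (p21 against non-targeting lines, KLF4), and to -0.013 and -0.029 (mean KLF4 effect), -0.119 (in p21) and -0.014 and -0.073 (in miR-150 lines).

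Among AP-2 and adaptor genes 10 rose with KLF4 under cyclic loess and 2 fell under the strict filter, and 5 to 11 rose and 2 to 5 fell with 1 array left out. Among scission genes 1 fell under cyclic loess, the strict filter or the replicate block (pairing by line), and 2 to 5 rose and 0 to 3 fell with 1 array left out. With 1 array left out, the AAK1 difference of miR-150 from non-targeting lines ran from -0.144 to 0.061 with KLF4 and from -0.307 to -0.075 with ECV. That of GAK ran from 0.06 to 0.173 with KLF4 and from -0.095 to -0.033 with ECV.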
